A study of Cavia porcellus with 30 samples.

Results

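Liver transcripts were compared between 5 Hartley guinea pigs given thioacetamide at 25 mg/kg and 5 given saline at 3 ml/kg, with livers taken at 33 h. These 10 animals were selected by their dose and time labels out of 30 in the series, and all 25824 listed transcripts entered the comparison. For the time course, the same dose at 9 h and its saline animals were used, and for dose, animals given 100 mg/kg and taken at 33 h, again 5 in each group. All groups are livers of 1 outbred breed. The labels used here name no age, sex or route of dosing. The series aimed at livers injured to different extents, and the comparison asks what a small dose had changed in liver RNA on the day after dosing.

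Thioacetamide is harmless until liver enzymes oxidise it, first to a sulfoxide and then to a reactive product that binds proteins and lipids. These enzymes are most abundant in the hepatocytes around the central veins, where the injury is known to begin. In the days after such an injury, a liver is known to clear damaged cells and to replace them by division of surviving hepatocytes. In bulk liver RNA, fewer cells of a type and less RNA per cell cannot be told apart.

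The tables name transcripts by Ensembl identifier only and the reference table used here matched 0 of the 25824 identifiers, so no gene names are given and liver markers were not checked. The results below concern groups of transcripts, set by direction, size, abundance, time and dose, and 4 transcripts named by identifier. Library totals of the 10 animals ran from 21352824 to 31390908 estimated counts, and the 18239 tested transcripts held 99.97% to 99.98% of the counts.

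At 33 h the low dose livers differed from vehicle livers in 25.7% of tested transcripts, with 2608 higher (14.3%) and 2086 lower (11.4%; edgeR quasi-likelihood test, adjusted p under 0.05). Most of these changes were small. Among the rises the quartiles of the fitted log2 fold change were 0.41 and 1.0 around a median of 0.61, and among the falls they were -0.84 and -0.41 around -0.58. Under 1.5-fold lay 1225 of the rises and 1042 of the falls. The tail of large changes was mostly upward. Beyond 4-fold there were 247 rises and 40 falls, and beyond 8-fold 127 rises and 25 falls. For transcripts with no counts in one of the groups the fitted size depends on the prior count, so these size counts are approximate. The rises came from transcripts less abundant than the falls but more abundant than those tested as a whole. Their median level in vehicle livers at 9 h was 6.25 TPM (a level corrected for length and library size), against 20.2 TPM for the falls and 3.94 TPM for all tested.

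The animal groups were fully separated for many of these transcripts. CPM, the counts scaled to library size, did not overlap between low dose and vehicle animals in 16.0% of tested transcripts, 8.76% with the low dose higher and 7.28% with it lower. Among the called ones this held for 1477 of the rises (56.6%) and 1196 of the falls (57.3%), and the ranges of the groups overlapped for the rest. Classes of transcript length gave similar shares. The share called higher ran from 11.7% of transcripts under 500 bases to 16.1% of those of 2000 to 4000 bases, and the share called lower from 9.84% to 12.9% over 5 classes of length.

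Direction in this comparison is relative to the scaling. The TMM factors, which scale each library so that most transcripts keep their level, were 0.978 to 1.23 in the low dose animals and 0.822 to 0.894 in the vehicle animals, with no overlap. With TMM the median of all transcripts was 0.03 on the log2 scale and 55.6% of calls were rises. Scaled by library totals instead, the median was 0.36, 7434 transcripts were called and 90.5% of them were rises, 6730 against 704 falls. Transcripts at least 2-fold higher then numbered 1524 (649 with TMM) and those at least 2-fold lower 115 (293 with TMM). No transcript was called in opposite directions under both scalings.

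**Figure D1:**
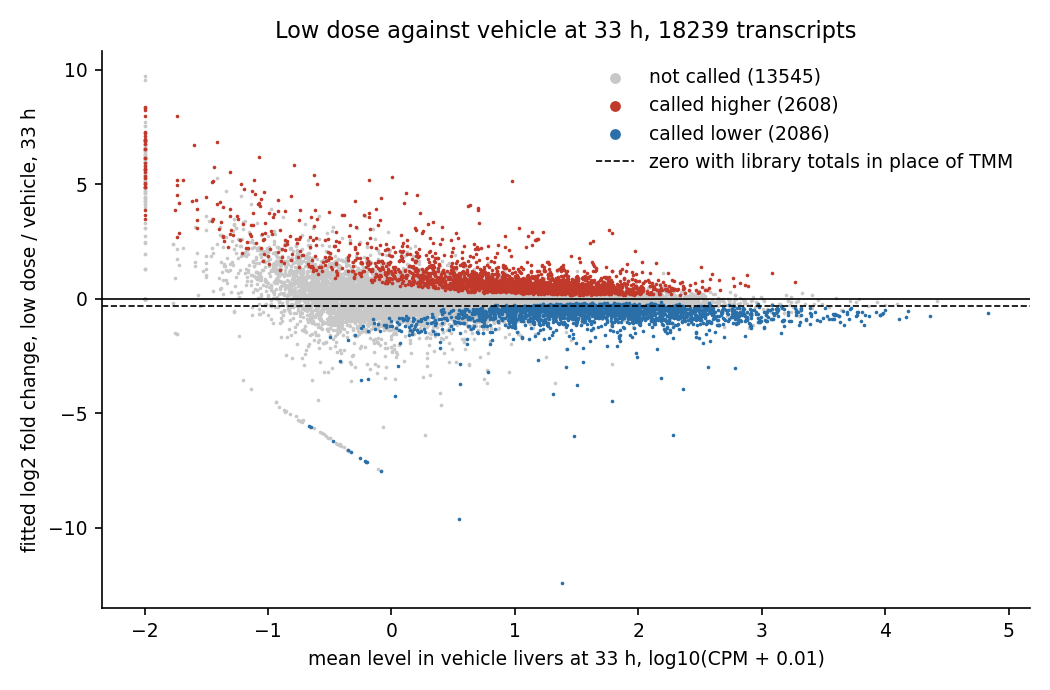
Each point is 1 of 18239 tested transcripts, with its mean level in vehicle livers at 33 h on a log10 scale (horizontal, CPM plus 0.01) and its fitted log2 fold change at the low dose (vertical). Red points (2608) were called higher and blue points (2086) lower, the dashed line shows where 0 lies with library totals, and the falls gather at the abundant end. Both axes use the vehicle animals at 33 h, so variation in those animals moves points right and down together.

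The largest rise by the naming rule was that of ENSCPOT00000042516.1, a transcript of 3303 bases that was almost silent in vehicle livers. It was at 0 TPM in 4 of the vehicle animals at 33 h and at 0.115 TPM in the other. The low dose animals 1 to 5 measured 2.19, 2.28, 0.248, 6.08 and 2.84 TPM. Each low dose animal was above each vehicle animal, as the rule requires, but animal 3 lay close to the vehicle range and animal 4 was the highest. The fitted log2 fold change was 6.19 ± 1.20 (SE, edgeR adjusted p = 0.000338), from 9 estimated counts in the vehicle group and 912 in the low dose group. With limma voom the call was lost (adjusted p = 0.0951).

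The next largest rise, that of ENSCPOT00000042433.1 (3344 bases), followed the same order of animals. Its level was 0.0684, 0, 0, 0.0846 and 0.0996 TPM in vehicle animals 1 to 5. In the low dose animals it was 2.89, 4.15, 0.345, 8.84 and 4.90 TPM. Animal 3 was again the lowest of the treated animals and animal 4 the highest, and the log2 fold change was 5.82 ± 0.73 (SE, edgeR adjusted p = 1.77e-06).

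The largest fall, in ENSCPOT00000000420.3 (1496 bases), was a complete loss in the files. Vehicle animals 1 to 5 measured 20.4, 28.7, 6.24, 14.5 and 29.0 TPM, and all 5 low dose animals were at 0. With a floor of 3 counts per library this was at least 238-fold lower (edgeR adjusted p = 0.000184). With limma voom it was not called (adjusted p = 0.306). It was the only one of the 25824 listed transcripts with 0 counts in every low dose library and at least 10 in every vehicle library. In the opposite direction also 1 transcript was at 0 in every vehicle library and at 10 or more in every low dose library. Among vehicle animals at 9 h ENSCPOT00000000420.3 ran from 0 to 22.1 TPM, with 0 in 2 of the 5, so untreated livers at 0 were also found.

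The next largest fall, in ENSCPOT00000012511.2 (973 bases), came from a high level and was present in every animal of the other time. Vehicle animals 1 to 5 measured 339, 96.6, 163, 254 and 471 TPM at 33 h. The low dose animals measured 8.86, 0.760, 2.87, 2.34 and 13.4 TPM. The highest treated value thus lay well under the lowest vehicle value, and the log2 fold change was -5.93 ± 0.96 (SE, edgeR adjusted p = 5.03e-05). At 9 h the same transcript was at 307 ± 195 TPM after the low dose and its saline animals were at 253 ± 186 TPM (SD, n = 5 each), and it was not called there (log2 fold change 0.22 ± 0.76, SE, edgeR adjusted p = 0.884).

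The naming rule was met by 1252 rises and 1121 falls, and the 12 largest of each are described as sets. The 12 rises spanned log2 fold changes from 4.04 to 6.19 and reached mean levels of 1.30 to 234 TPM at the low dose, from 0.0225 to 10.3 TPM in vehicle livers. The sixth of them was the most even among treated animals, at 127, 144, 68.0, 126 and 134 TPM against 2.68, 2.16, 0.940, 3.34 and 3.96 TPM in vehicle animals. In the eighth, low dose animal 4 was at 370 TPM and the other low dose animals were between 9.14 and 39.7 TPM. The 12 falls spanned log2 fold changes from -2.53 to -12.38 (the latter fitted with 0 low dose counts), from vehicle means of 2.97 to 4517 TPM. The highest of these means belonged to a transcript of only 189 bases, whose vehicle values ran from 918 to 8760 TPM and whose low dose values ran from 198 to 796 TPM.

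Low dose animals took a steady order over the rises and a mixed one over the falls. Animal 3 was the least changed treated animal in 12 of the 12 largest rises, and animal 4 the most changed in 10. Over the 11 of the 12 largest falls in which the treated animals were not all at the same value, the least changed was animal 5 in 4, animals 1, 2 and 3 in 2 each and animal 4 in 1, and the most changed was animal 4 in 5 and animal 2 in 4. Vehicle animals also varied together there, since vehicle animal 3 had the lowest vehicle level in 8 of the 12 falls and vehicle animal 5 the highest in 7. These sets were picked for their separation at 33 h, so the orders within a group are descriptions.

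**Figure D2:**
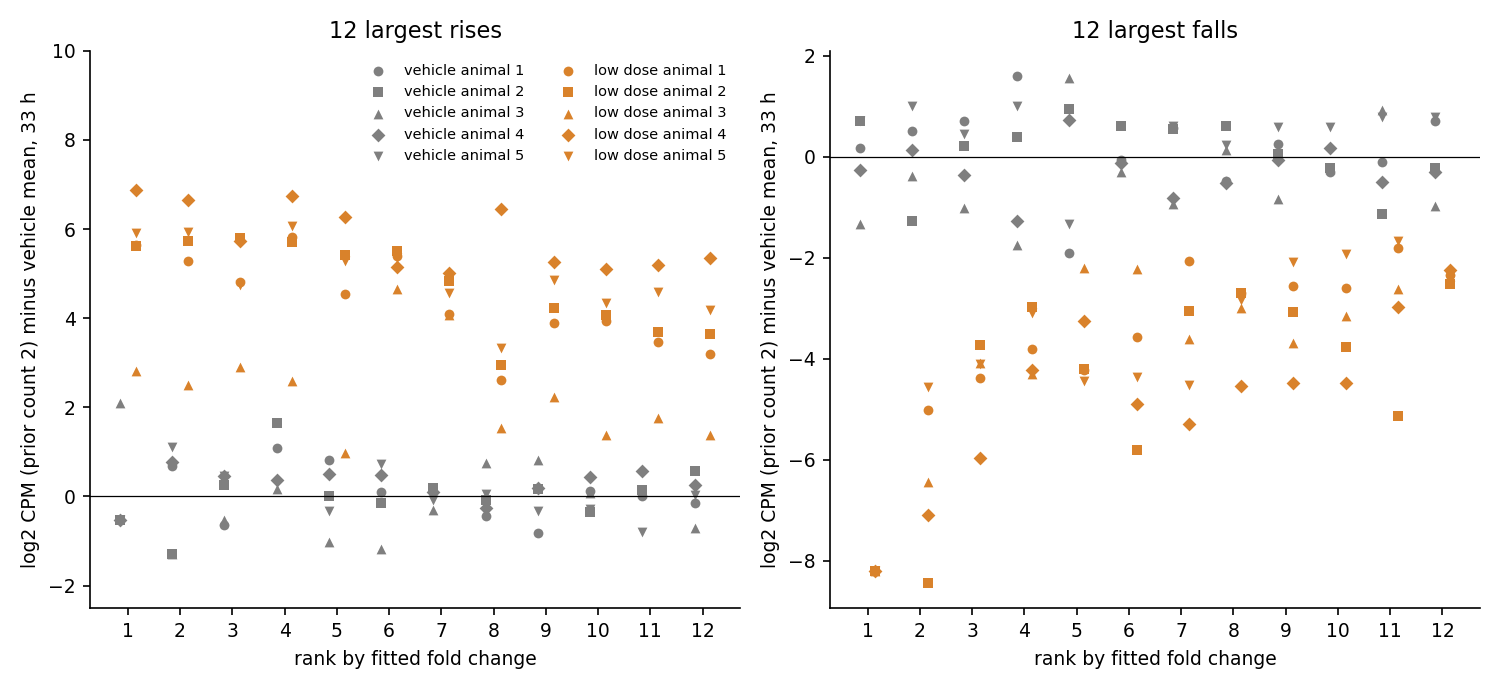
Log2 CPM (prior count 2) minus the vehicle mean is plotted by rank for the 12 largest rises (left) and falls (right), with 1 marker shape per animal number, grey for vehicle and orange for low dose at 33 h. Low dose animal 3 (triangles) is the least raised in all 12 rises.

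The 5 low dose animals differed in how far their livers had moved, and this could be placed on scales made from other animals. The transcripts used were those called and at least 2-fold changed in separate fits that contained none of the 10 animals. They were 772 rises and 161 falls of the low dose at 9 h, and 1651 rises and 1470 falls of the high dose at 33 h against vehicle at 9 h. For each liver, the mean log2 CPM of a set was taken relative to the vehicle mean at 33 h.

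On the 9 h rises the low dose animals 1 to 5 stood at 0.70, 0.76, 0.32, 1.19 and 0.95 at 33 h, all above the vehicle range of -0.05 to 0.06. The 9 h low dose animals stood at 2.01 ± 0.19 (SD, n = 5), above every low dose animal at 33 h. Their own values chose this set. On the 9 h falls the values were -0.52, -0.62, -0.03, -0.92 and -0.63. Animal 3 was here within the vehicle range of -0.17 to 0.19 and the other treated animals were below it.

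On the rises of the high dose at 33 h the low dose animals stood at 0.71, 0.73, 0.24, 1.39 and 0.88, against -0.07 to 0.06 in vehicle animals and 1.52 to 2.17 in high dose animals. On the matching falls they stood at -0.54, -0.69, -0.36, -1.05 and -0.71, against -0.01 to 0.03 in vehicle and -1.90 to -1.30 in high dose animals. The high dose animals' own values chose these sets, which places those animals at the far end. Among the low dose animals, animal 3 was nearest to vehicle and animal 4 nearest to the high dose on both scales. The scales are given as descriptions and no test was made of them. They use TMM, whose factor was 0.978 in animal 3 and 1.23 in animal 4. A larger factor lowers every CPM of a library, and positions with library totals are not given.

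**Figure D3:**
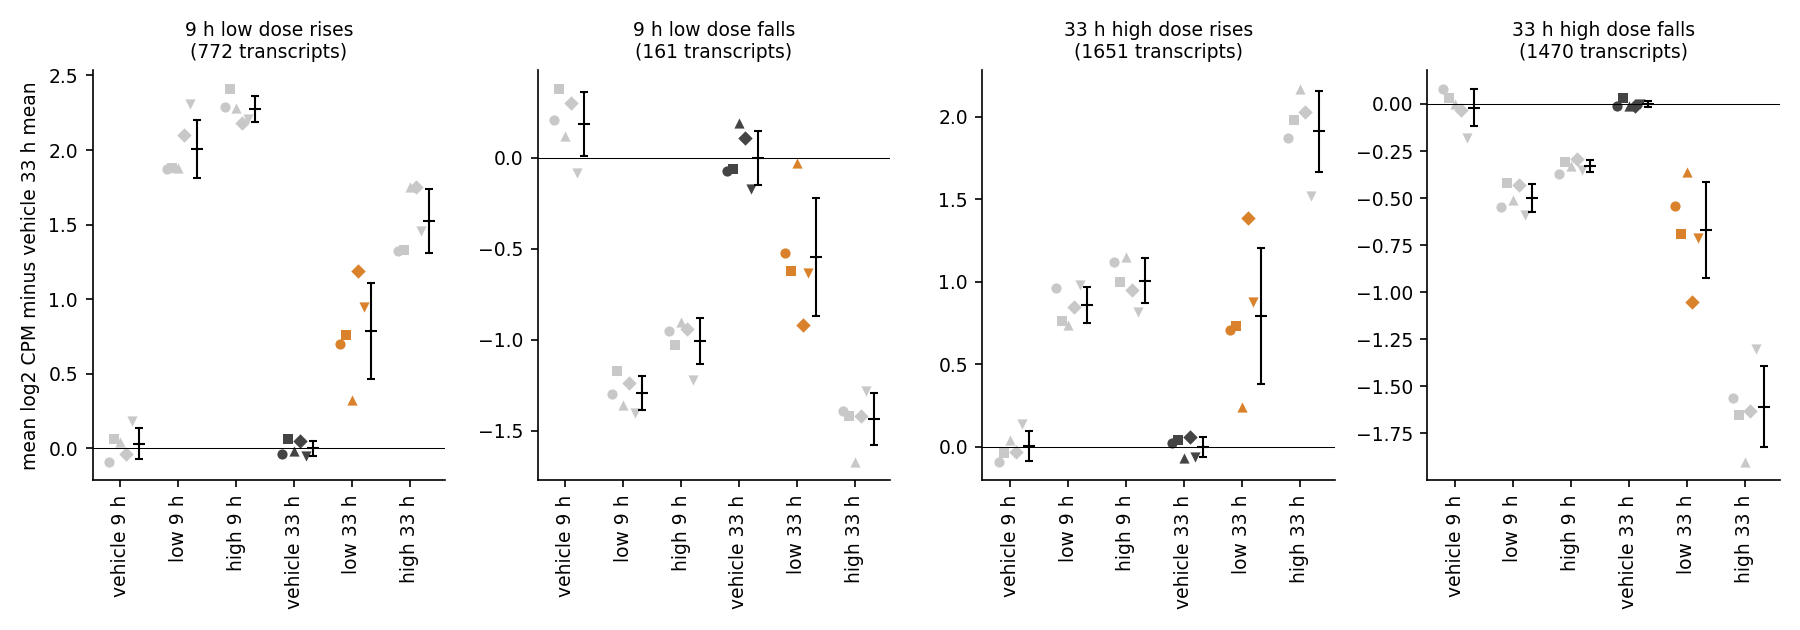
Each marker is 1 liver, at the mean log2 CPM of a transcript set minus the vehicle mean at 33 h, for 4 sets chosen in other animals; black bars are group means ± SD (n = 5) and grey markers the other groups. The low dose livers at 33 h (orange) spread from 0.24 to 1.39 on the high dose rises, while vehicle livers at 33 h (black) stay between -0.07 and 0.06.

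Counting extremes gave a similar picture for rises and a weaker one for falls. Low dose animals 1 to 5 had 395, 494, 250, 848 and 434 transcripts at least 2-fold above every vehicle animal. The vehicle animals had 149 to 189 such transcripts when each was set against the other 4, which is an easier bar. At least 2-fold below every vehicle animal were 179, 303, 221, 583 and 269 transcripts in the low dose animals, and 193 to 341 in the vehicle animals by the same easier count. For falls only animal 4 thus exceeded the vehicle animals. These counts and the shares below use TMM, whose factor was 0.978 in animal 3 and 1.23 in animal 4. A larger factor lowers every CPM of a library, and the same counts with library totals are not given. Over all called transcripts animal 3 was the least changed treated animal in 51.5% of rises and 53.8% of falls, and animal 4 the most changed in 50.2% and 56.4%. The same animals entered the calls, and shares over all tested transcripts are not given, so these shares are a description. Without animal 4 the comparison gave 3523 calls and without animal 3 it gave 4952.

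The spread between animals over all transcripts did not pass a test between the groups. Per animal, the root mean square distance of log2 CPM from the other animals of its group was 0.748 ± 0.0587 in treated and 0.804 ± 0.0296 in vehicle animals (SD, n = 5 each; exact permutation p = 0.0952, two-sided). The difference of -0.0554 was -0.0161 among transcripts of at least 10 CPM (exact p = 0.627). Distances within a group depend on each other, so these p-values are approximate. Animal 3 had the highest value of the low dose group, 0.832, and vehicle animal 3 that of the vehicle group, 0.846.

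The direction of change varied with abundance. The share of transcripts called lower rose with the level in vehicle livers at 9 h, from 1.89% of 5018 transcripts under 1 TPM to 8.22% at 1 to 10 TPM, 19.8% at 10 to 100 TPM, 46.0% at 100 to 1000 TPM and 59.3% above 1000 TPM. The share called higher was 7.85%, 16.6%, 19.0%, 7.12% and 1.63% in the same classes. Rises of at least 2-fold were mostly found at low levels. They were 328 of 5018 transcripts under 1 TPM, 242 of 7630 at 1 to 10 TPM and 70 of 4668 at 10 to 100 TPM. At 100 to 1000 TPM they were 9 of 800, and above 1000 TPM 0 of 123. Falls of at least 2-fold numbered 55, 91, 85, 53 and 9 in the same classes. Because the abundant classes are much smaller, the share of such falls rose with abundance. The filter used libraries of all groups, so a transcript under 1 TPM could be tested because of its level in treated livers. That favours rises in this class. Small changes are also hard to call at few counts, and 328 of the 394 rises called under 1 TPM were at least 2-fold. How far the filter and the low counts shaped these numbers was not tested. Class medians relative to the median of all transcripts were 0.10, 0.03, -0.03, -0.34 and -0.59 on the log2 scale with TMM, and 0.10, 0.03, -0.03, -0.35 and -0.60 with library totals. A change of scaling shifts all fitted log2 fold changes by about the same amount. The near equality of these relative medians is thus fixed by arithmetic and is no separate support for the pattern. The calls did change with the scaling. At 10 to 100 TPM, 885 rises stood against 923 falls with TMM and 2426 against 281 with library totals, and at 100 to 1000 TPM 57 against 368 became 186 against 206.

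**Figure D4:**
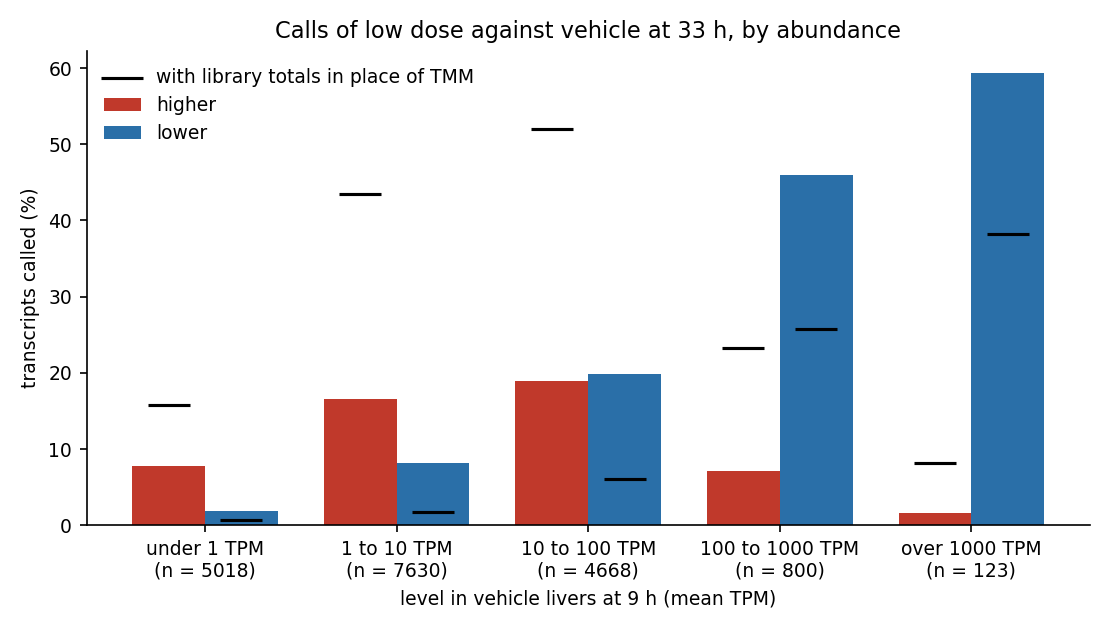
Bars show the percentage of transcripts called higher (red) or lower (blue) at the low dose, 33 h, by mean TPM in vehicle livers at 9 h, and black dashes show the same with library totals. Falls reach 59.3% of the 123 transcripts above 1000 TPM with TMM.

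Shares of the counts, which need no scaling factor, moved the same way. Transcripts were ranked by TPM, which favours short ones over a ranking by counts. The 10 most abundant in vehicle livers at 9 h held 10.9%, 9.11%, 11.4%, 9.61% and 9.73% of the counts in low dose animals 1 to 5 and 13%, 11.5%, 13.9%, 13.7% and 12.8% in vehicle animals. The groups did not overlap, with low dose animal 3 next to vehicle animal 2 (difference of means -2.80 points, p = 0.00794 by a two-sided exact permutation test, the lowest value possible with 252 arrangements, and 0.00794 adjusted over 4 comparisons). Ranked on vehicle livers at 33 h instead, the 10 most abundant differed by -2.30 points and did not pass (exact p = 0.190). With the 9 h ranking and shares of TPM in place of counts, the difference was -3.99 points (exact permutation p = 0.0159). The 1000 most abundant held 63.3 ± 2.88% in treated and 70.7 ± 1.15% in vehicle animals (SD, n = 5 each, exact permutation p = 0.00794, adjusted p = 0.00794). With each library thinned to 21352780 counts, 16341 ± 235 transcripts reached 10 counts in treated and 15775 ± 120 in vehicle animals (SD, n = 5 each, exact permutation p = 0.00794, adjusted p = 0.00794).

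Single abundant transcripts did not all follow this. The transcript with the highest count in all vehicle livers, of 2055 bases, held 4.69 ± 0.523% of all counts in treated and 5.85 ± 0.935% in vehicle animals (SD, n = 5 each). With TMM it fell by 0.64 ± 0.17 on the log2 scale (SE, edgeR adjusted p = 0.00701). In low dose animal 5 another transcript, of 2267 bases, had the highest count. It held 0.673%, 0.95%, 1.52%, 1.93% and 8.19% of the counts in low dose animals 1 to 5. In vehicle animals 1 to 5 it held 0.785%, 0.872%, 3.5%, 2.67% and 3.4%, and in high dose animals at 33 h 0.724%, 1.18%, 2.59%, 4.32% and 7.19%. Animals are numbered in sample order within a group, and at both doses the share rose at each step. It did not do so in the vehicle animals, and at 9 h the last vehicle animal was at 1.01%. A link to sample order was not tested. This transcript was also the highest in 2 of the high dose livers at 33 h, with 4.32% and 7.19%. It showed no difference between low dose and vehicle at 33 h that passed the test (log2 fold change -0.10 ± 0.62, SE, edgeR adjusted p = 0.931). Both transcripts were picked after their values were seen.

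At 9 h, similar shares of the rises and the falls of 33 h had already been called in the same direction, while among larger changes the share was higher for rises than for falls, a difference that was not tested. The 9 h and 33 h comparisons share no animal. Of the 2608 rises at 33 h, 976 had been called higher at 9 h (37.4%, against 13.5% of all tested transcripts), and these were 39.6% of the 2466 rises at 9 h. Of the 2086 falls, 714 had been called lower at 9 h (34.2%, against 11.2% of all tested), which were 35.0% of the 2038 falls at 9 h. Of rises at least 4-fold at 33 h, 49.4% had been called higher at 9 h, with a median log2 fold change of 1.51 at 9 h and 3.07 at 33 h. Of the 293 falls at least 2-fold at 33 h, 56 had been called lower at 9 h (19.1%), and of the 649 such rises 301 had been called higher (46.4%). Of the 40 falls at least 4-fold at 33 h, 3 had been called lower at 9 h, and their median was -0.20 at 9 h and -3.63 at 33 h.

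Of the 12 leading rises, 11 were already called higher at 9 h, with log2 fold changes of 1.21 to 4.51 at that time over all 12; DESeq2 called 10 and limma voom 7. Of the 12 leading falls, 0 were called at 9 h in either direction by edgeR, with 9 h values of -2.28 to 1.25. At an unadjusted p under 0.05 2 passed, and DESeq2 called 0 and limma voom 1 of them at 9 h. The effect at 33 h was more negative than at 9 h in 11 of the 12 falls and more positive in 7 of the 12 rises by the test of the difference, which 11.3% of all tested transcripts passed, 5.56% with a more negative and 5.77% with a more positive effect. The sets were chosen for their size at 33 h, which enters that test, so these counts describe the sets and are not independent of the choice.

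Over all 4694 calls at 33 h the effect differed between the times for 1116 and was not called different for 3578. Among the rises 616 were more positive and 66 more negative at 33 h, and among the falls 424 were more negative and 10 more positive, where 5.77% and 5.56% of all tested transcripts were more positive and more negative. Being called at 33 h chose these transcripts and enters the test, so the counts are a description. Among the 4 named transcripts the difference passed for ENSCPOT00000042433.1 (3.42 ± 0.93 on the log2 scale, SE, edgeR adjusted p = 0.0163), ENSCPOT00000000420.3 (-10.10 ± 2.74, SE, edgeR adjusted p = 0.0185) and ENSCPOT00000012511.2 (-6.14 ± 1.19, SE, edgeR adjusted p = 0.00119). It did not pass for ENSCPOT00000042516.1 (3.57 ± 1.57, SE, edgeR adjusted p = 0.148), which stood at 2.51 ± 1.30 TPM at 9 h and 2.73 ± 2.11 TPM at 33 h after the low dose (SD, n = 5 each). For ENSCPOT00000000420.3 every low dose library at 33 h was at 0 counts, so the size of its difference depends on the prior count. Called lower at 9 h and higher at 33 h were 88 transcripts, 3.37% of the rises against 11.2% of all tested transcripts lower at 9 h. Called higher at 9 h and lower at 33 h were 64, 3.07% of the falls against 13.5% of all tested higher at 9 h.

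**Figure D5:**
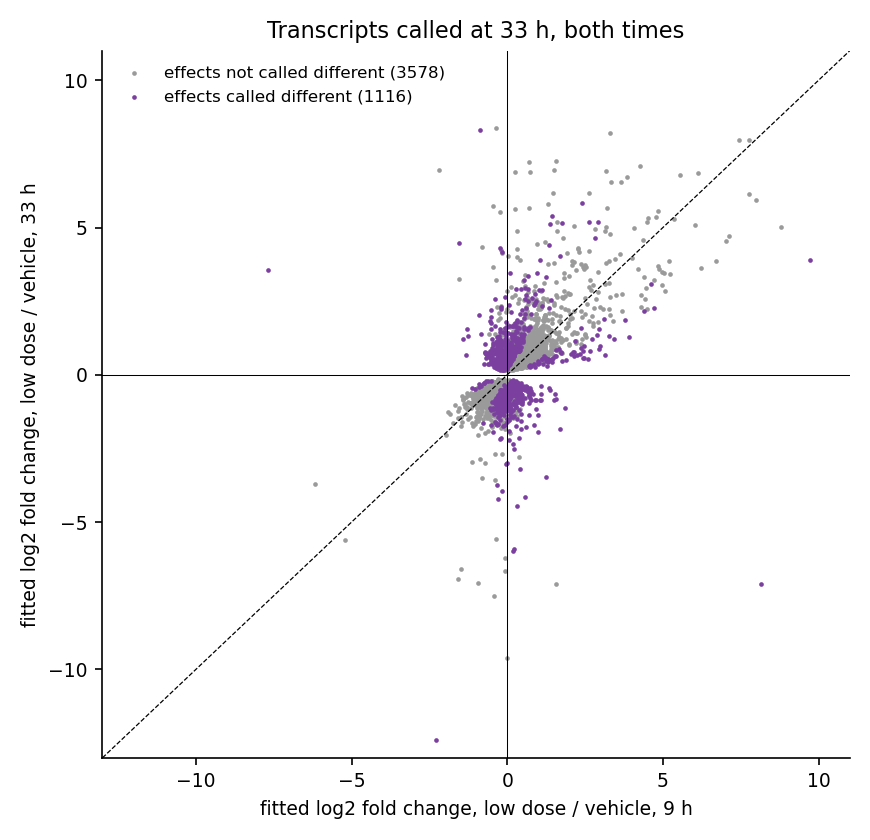
Fitted log2 fold changes of the low dose against vehicle at 9 h (horizontal) and 33 h (vertical) for the 4694 transcripts called at 33 h, with the dashed line marking equal effects. Purple points (1116) passed the test of the difference between times, and most of the deepest falls at 33 h lie near 0 at 9 h.

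Set beside the high dose at 33 h, 1633 of the 2608 low dose rises were not called different from it and 1104 of the 2086 falls were lower there, with TMM. Both doses share the same vehicle animals, so the effects are given side by side. The high dose differed from vehicle in 50.7% of tested transcripts, 28.2% higher and 22.5% lower. With library totals, 431 of these calls took the opposite direction. The low dose rises had a median log2 fold change of 0.61, and the same transcripts 0.81 at the high dose. The low dose falls had -0.58, and the same transcripts -0.97. Tested directly against the low dose, a comparison in which 16.9% of all transcripts were higher and 16.2% lower at the high dose, 806 of the rises were higher at the high dose (30.9%), 169 lower and 1633 not called. Of the falls 1104 were lower (52.9%), 108 higher and 874 not called. The low dose animals enter both the choice and this test, so these counts are not independent of the choice. They also depend on the scaling, since over all tested transcripts 3088 were higher and 2962 lower at the high dose with TMM, and 6185 and 1352 with library totals.

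Of the 40 falls at least 4-fold, 4 were lower still at the high dose, 10 were higher there and 26 were not called different. For ENSCPOT00000012511.2 the high dose livers measured 3.52, 0.737, 0.410, 1.75 and 37.4 TPM, a range that includes all low dose values (log2 difference 0.41 ± 0.85, SE, edgeR adjusted p = 0.765). For ENSCPOT00000042433.1 they measured 1.80 to 4.74 TPM, within the low dose range of 0.345 to 8.84 TPM (log2 difference -0.33 ± 0.54, SE, edgeR adjusted p = 0.698). ENSCPOT00000042516.1 was higher at the high dose, where every animal exceeded every low dose animal with values of 7.09 to 27.3 TPM (log2 difference 2.12 ± 0.76, SE, edgeR adjusted p = 0.0330). Of the 169 rises that were lower at the high dose than at the low dose, 134 were not called against vehicle at the high dose. Another 26 were called higher than vehicle and 9 lower. Not called there were 368 of all 2608 rises and 8998 of all 18239 tested transcripts. The choice of the 169 favours a high dose level near vehicle, so these counts are a description.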

How the data were processed

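Poly-A enriched liver RNA was sequenced as stranded paired-end libraries, per the labels' protocols. Quantification used kallisto 0.42.4, per the submitters' processing notes; the transcript set is not given in the sources used here. The deposited tables hold, per the file headers, estimated counts and TPM by the authors, with reads shared between transcripts divided among them. Members and lists were chosen with earlier results of these data known. Groups came from the dose and time labels, each library being 1 animal; pairs within the compared groups differed by more than counting noise (chi-square per degree of freedom 36.4 to 171 over 20 pairs).

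Estimated counts were rounded, filtered (filterByExpr, minimum count 10, minimum total 15, leaving 18239 transcripts) and fitted with edgeR 4.0.16 in R 4.3.3 over all 30 animals (TMM, robust quasi-likelihood, 24 residual degrees of freedom, Benjamini-Hochberg over all tested transcripts). Counts are relative, with no measure of total RNA, and p-values measure the spread between animals. SE is the log2 fold change over the root of F. The planned gene lists, marker lists and sequences need gene names and were not used here. Named transcripts were the 2 largest rises and falls that were called, did not overlap between groups and averaged 5 CPM or more where they were higher. On simulated counts for this comparison (17217 transcripts, 200 changed) 30.8%, 44.6% and 81.0% of changes of 1.5-, 2- and 4-fold were recovered and 4 of 104 calls were false. The simulated share changed was far smaller than the 25.7% called in the data, so recovery in the data may differ. Alternatives used DESeq2 1.42.0 and limma 3.58.1; intervals and floors cover counting error only.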

Additional observations from a re-analysis of the deposited data

Results flagged for a closer look

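In vehicle livers at 33 h, ENSCPOT00000042516.1 was at 0.115 TPM in animal 3 and at 0 in the other 4, a gap equal to the whole range of the group. On the scale of the high dose falls, vehicle animal 2 stood at 0.03, apart from the other vehicle animals at -0.01 to 0.00, within a range far smaller than the distance to any low dose animal. For normally distributed values such a gap is expected by chance in about 1 in 20 groups of 5, and the distribution was not checked. That rate does not hold for the transcript, where 4 values tie at 0.

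By the test of the difference, 2067 transcripts responded differently to the low dose at 33 h and at 9 h. Of the named ones it differed for ENSCPOT00000042433.1 (3.42 on the log2 scale), ENSCPOT00000000420.3 (-10.10) and ENSCPOT00000012511.2 (-6.14).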

How the results depend on the processing

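The calls of the low dose at 33 h came to 3523 to 4952 over the 10 fits without 1 animal, 1972 to 2791 of them rises and 1551 to 2161 falls. Of 17 alternatives, the 1 that moved these counts by over 1.5 times was library totals in place of TMM, with 7434 calls, 6730 rises and 704 falls. With only the 10 compared animals in the fit 3700 were called, and with DESeq2 5104. The counts between times (1676 to 2510, apart from 2943 with library totals), between doses (4326 to 6564, apart from 7537) and of the high dose (8145 to 9458, apart from 11939) stayed within 1.5 times under every alternative run, but rises were 80.6%, 82.1% and 86.8% of calls with library totals, against 50.9%, 51.0% and 55.6% with TMM. Of the 9241 high dose calls with TMM, 6717 kept their direction with library totals and 431 were called in the opposite direction. The named transcripts kept their direction in all 17 fits each. The share of the 10 most abundant transcripts did not pass when ranked on vehicle livers at 33 h (-2.30 points, exact permutation p = 0.190). Leaving out each animal in turn, the difference in spread ran from -0.0931 to -0.0101, and it passed without low dose animal 3 (-0.0597, exact p = 0.0317) or without vehicle animal 1, 4 or 5 (exact p = 0.0476 each). The distances within a group depend on each other, so these p-values for spread are approximate. No paired analysis was possible because the labels give no numbers shared between groups. Class counts and 2-fold counts with library totals were added after seeing the data.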

Other observations

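Transcripts with 1 animal apart from the other 4 were as common in vehicle livers at 33 h as in low dose livers. They were 7.54% and 7.13% of tested transcripts on log2 CPM. The test marks about 5% by chance for normally distributed values, which tied values are not. In the low dose group, animal 3 was the one apart in 400 of 1301 cases and animal 4 in 336, while in the vehicle group the 5 animals shared 1375 cases with 236 to 312 each.

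At most 3 counts in every vehicle library and at least 10 in every low dose library were found for 5 transcripts, and the reverse for 1.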
